A study of Mus musculus with 2 samples.

Results

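The 9 genes described here are 5 cystatins (Cstl1, Cst12, Cst8, Cst13 and Cst9), 3 beta-defensins (Defb19, Defb36 and Defb33) and Wfdc10, which encodes a protein with a whey acidic protein (WAP) domain. They were taken by gene symbol from the 32285 genes of the deposited tables. They had been selected on their measured levels across cell classes in these data, some high in Sertoli cells and the others in spermatids, so those levels are given as a description with no test. The samples were whole mouse testes dissociated to single cells, with 1 library from Prm2 -/- mice (the knockout library) and 1 from Prm2 +/- mice (the heterozygous library). Both genotypes thus carry at least 1 mutant Prm2 allele, and no wild type was included. Prm2 encodes protamine 2, a sperm nuclear protein made in elongating spermatids. The labels give no age, strain or number of animals, and the protocol included a wash to deplete Leydig cells.

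Cystatins are small secreted proteins, and the classical members block cysteine proteases of the cathepsin family. Cst8 (also called CRES) belongs to a branch expressed in the reproductive tract that lacks part of the residues by which classical cystatins bind their targets. Cst9 (testatin) is known from mouse Sertoli cells, the somatic nurse cells of the seminiferous tubule. Beta-defensins are short cationic peptides with antimicrobial activity, and many of them coat sperm in the epididymis. The WAP domain is found in secreted inhibitors of serine proteases and in antimicrobial proteins. Round spermatids are the haploid cells after meiosis, and elongating spermatids are the stage in which histones give way to transition proteins and protamines.

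The libraries held 123588822 unique molecular identifiers (UMIs, each a counted RNA molecule) in the knockout and 71364845 in the heterozygous library, in 22885 and 15210 cell barcodes. After filtering and removal of called doublets, 18960 knockout and 14576 heterozygous cells remained, and 88 barcode sequences occurred in both libraries. Prm2 had 143 UMIs in knockout and 551831 UMIs in heterozygous elongating-spermatid-like cells, or 9.71 and 40120 CPM (counts per 1e6 UMIs of the summed cells). The cells were grouped in 27 clusters, and classes are called "like" a cell type from their markers, with 7 classes large enough in both libraries to compare. The Sertoli-like class held 844 knockout and 1224 heterozygous cells, in clusters 6 and 22. Of 13 Sertoli markers, 12 in the knockout and 11 in the heterozygous library were above 10 CPM in it, with a summed level of 5101 and 3552 CPM. The doublet caller marked 15.7% of knockout and 3.07% of heterozygous cells; whether more doublets remain in the heterozygous library was not tested. Each genotype is 1 library, so no difference between genotypes has a replicate check, and intervals are 95% intervals for counting error only.

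Of the 9 genes, 8 lie on mouse chromosome 2 (GENCODE M21 on mm10). The 5 cystatins share a stretch of 88381 bp and the plus strand. In map order they are Cstl1 (chr2:148750358-148755433), Cst12 (chr2:148789361-148793546), Cst8 (chr2:148798785-148805595), Cst13 (chr2:148820081-148830410) and Cst9 (chr2:148835147-148838738). Their classes of highest level do not follow this order. Cstl1 was highest in elongating-spermatid-like cells, Cst12 in Sertoli-like, Cst8 in elongating-spermatid-like, Cst13 in round-spermatid-like (or, under most other settings, elongating-spermatid-like) and Cst9 in Sertoli-like cells, in both libraries. Only 5238 bp lie between the Sertoli gene Cst12 and the spermatid gene Cst8, and only 4736 bp between the spermatid gene Cst13 and the Sertoli gene Cst9. Next to them, Cstdc1 was highest in Sertoli-like cells, while Cst3 and Cstdc2 beyond Cst9 were highest in Leydig-like cells. Defb19 (chr2:152576086-152580312, minus strand) and Defb36 (chr2:152604327-152612729, plus strand) flank Defb45, and all 3 were highest in Sertoli-like cells. The gene Wfdc10 (chr2:164656046-164657368, plus strand) overlaps Wfdc9 on the other strand. Defb36 overlaps a processed pseudogene, Gm14163, on the same strand, so reads of Defb36 and Gm14163 may have been shared. How reads in either overlap were assigned was not tested. Defb33 (chr8:20892669-20897723, plus strand) is the only one of the 9 genes on chromosome 8. Gm15056 lies 2882 bp beyond it, and Defa genes such as Defa21 and Defa23 lie further along.

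The promoters of the 5 neighbouring cystatins and of Defb33 are shown because close neighbours were highest in different cells. Each window runs from 250 bases before to 50 bases after the start of the gene, 5′ to 3′ on the plus strand, and comes from RefSeq on GRCm38.p6, whose table matched 8 of the 9 genes (Defb19 was not among them). The capitals mark GGTCATA and TCACAAAG. These 2 strings were picked after these promoters had been read, so their count among the 9 genes is no test. The windows are chr2:148750111-148750410 for Cstl1, chr2:148789115-148789414 for Cst12, chr2:148798589-148798888 for Cst8, chr2:148819849-148820148 for Cst13, chr2:148834897-148835196 for Cst9 and chr8:20892417-20892716 for Defb33.
Cstl1: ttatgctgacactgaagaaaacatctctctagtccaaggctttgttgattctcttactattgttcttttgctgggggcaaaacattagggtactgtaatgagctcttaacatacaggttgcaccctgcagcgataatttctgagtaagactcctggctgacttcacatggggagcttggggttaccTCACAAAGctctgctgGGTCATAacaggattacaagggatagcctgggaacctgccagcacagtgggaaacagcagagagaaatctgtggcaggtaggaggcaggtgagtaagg
Cst12: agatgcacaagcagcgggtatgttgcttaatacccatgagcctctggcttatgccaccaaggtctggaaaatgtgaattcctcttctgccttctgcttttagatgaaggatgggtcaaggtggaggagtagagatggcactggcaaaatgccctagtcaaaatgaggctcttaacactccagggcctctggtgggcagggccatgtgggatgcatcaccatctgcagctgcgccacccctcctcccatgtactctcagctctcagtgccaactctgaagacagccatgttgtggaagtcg
Cst8: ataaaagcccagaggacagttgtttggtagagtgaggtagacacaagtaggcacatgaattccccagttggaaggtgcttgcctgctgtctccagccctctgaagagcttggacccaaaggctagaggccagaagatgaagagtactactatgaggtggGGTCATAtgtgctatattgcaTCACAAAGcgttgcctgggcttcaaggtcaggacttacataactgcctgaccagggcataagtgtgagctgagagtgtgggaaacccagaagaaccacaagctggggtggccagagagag
Cst13: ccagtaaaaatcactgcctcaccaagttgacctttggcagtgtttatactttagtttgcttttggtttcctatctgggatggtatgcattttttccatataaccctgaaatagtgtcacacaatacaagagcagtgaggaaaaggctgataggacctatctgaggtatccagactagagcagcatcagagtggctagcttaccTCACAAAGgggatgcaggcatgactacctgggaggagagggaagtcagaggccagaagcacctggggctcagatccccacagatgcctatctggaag
Cst9: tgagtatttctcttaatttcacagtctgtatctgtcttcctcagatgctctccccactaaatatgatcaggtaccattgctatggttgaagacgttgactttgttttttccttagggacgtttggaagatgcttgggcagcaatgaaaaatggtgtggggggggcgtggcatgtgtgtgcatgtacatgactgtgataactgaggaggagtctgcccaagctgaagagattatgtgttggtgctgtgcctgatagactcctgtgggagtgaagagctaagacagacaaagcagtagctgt
Defb33: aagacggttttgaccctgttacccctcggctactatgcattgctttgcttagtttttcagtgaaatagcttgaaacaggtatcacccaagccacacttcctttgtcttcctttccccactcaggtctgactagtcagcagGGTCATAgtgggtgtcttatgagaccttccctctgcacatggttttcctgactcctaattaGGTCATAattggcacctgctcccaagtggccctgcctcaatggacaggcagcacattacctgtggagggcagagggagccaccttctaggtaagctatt

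Searched on both strands, GGTCATA stood in the windows of Cstl1, Cst8 and Defb33, with 2 copies in Defb33, and in 1.63% of 32851 promoters of the same length. TCACAAAG stood in Cstl1, Cst8 and Cst13, and in 1.88% of all promoters. In Cst8 and in Cstl1 both strings lay within the 91 bases before the start. The 4 promoters available for genes highest in Sertoli-like cells (Cst9, Cst12, Defb36 and Wfdc10) held neither string. The other strings searched were TATAAA (found in Cst13 and in 13.6% of all promoters), AACAAT (Cstl1 and Wfdc10, 10.7%), GATAA (Cstl1, Cst9, Defb36 and Wfdc10, 25.4%), TGACGTCA (no member, 1.79%) and TGACG, which TGACGTCA contains (no member, 20.8%). A match is only a run of letters in these windows.

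Cst9, Cst12, Defb19, Defb36 and Wfdc10 were highest in Sertoli-like cells in both libraries. In Sertoli-like cells Cst9 had 3507 UMIs in the knockout and 1354 in the heterozygous library, which is 1805 and 840 CPM. Cst12 stood at 1088 CPM in the knockout and 1223 CPM in the heterozygous library, and Wfdc10 at 443 and 465 CPM. Defb19 and Defb36 were lower in the knockout library. Defb19 had 3053 CPM in knockout and 3901 CPM in heterozygous cells, and Defb36 had 349 and 714 CPM. The beta-defensin Defb45, also highest in Sertoli-like cells, went the other way, with 279 CPM in knockout and 233 CPM in heterozygous cells. Over elongating-spermatid-like cells the 5 genes named first were higher by 15.3- to 32.6-fold in the knockout and 81.8- to 125-fold in the heterozygous library. A difference of 2-fold or more in that direction was found for 57.1% of 4795 genes in the knockout and 52.8% of 3694 genes in the heterozygous library. This is the contrast that chose the genes, and nothing is read from it.

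**Figure D1:**
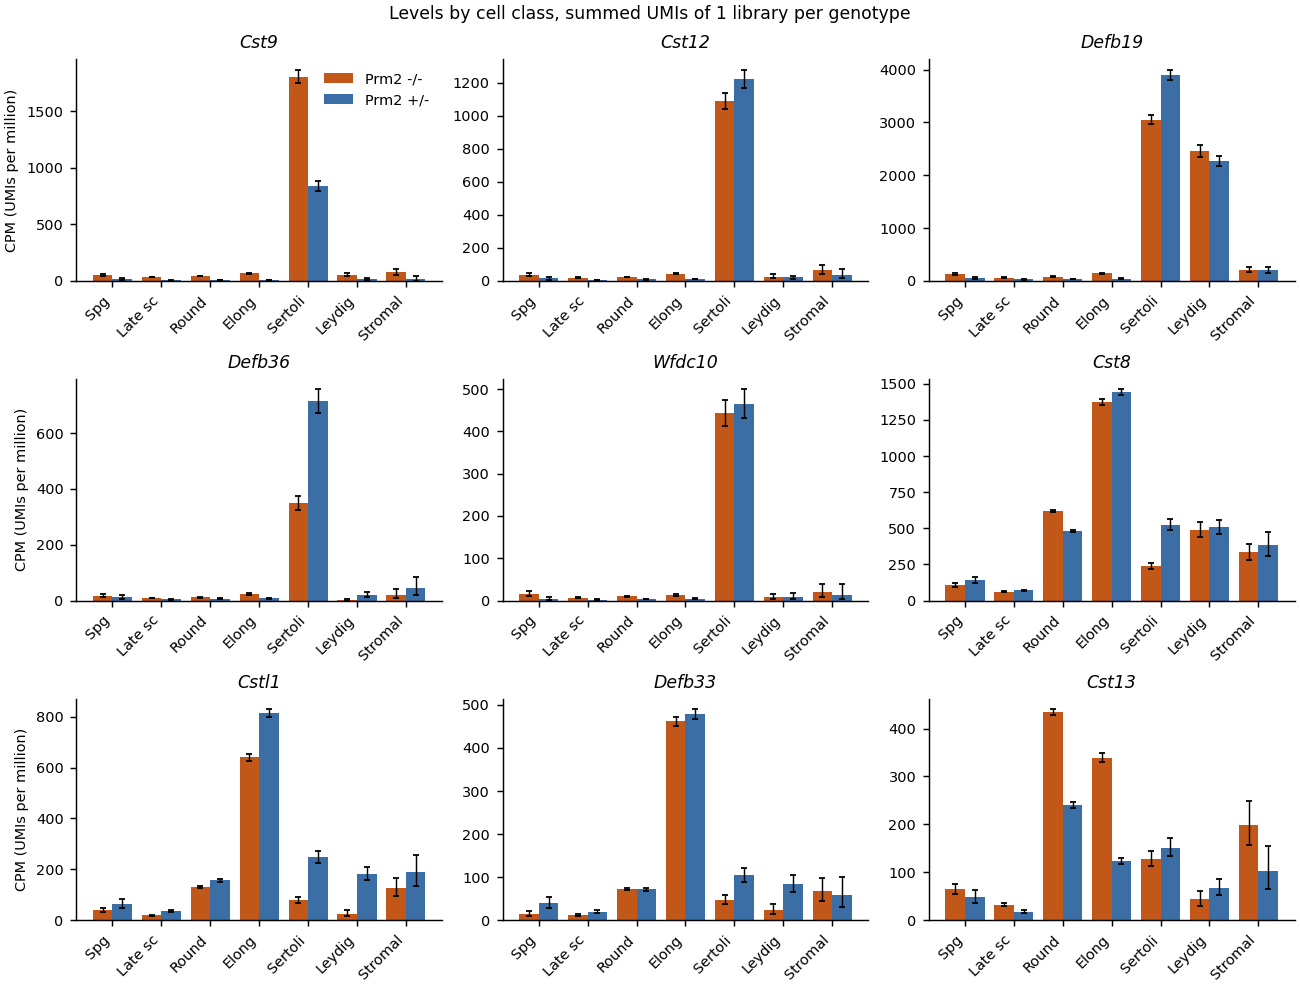
Level of each gene in CPM (y axis) in 7 cell classes (spermatogonia-, late-spermatocyte-, round-spermatid-, elongating-spermatid-, Sertoli-, Leydig- and interstitial-stromal-like), knockout bars left of heterozygous ones, with exact Poisson 95% intervals of counting error in 1 library each. Cst9, Cst12, Defb36 and Wfdc10 have their bars above 300 CPM in Sertoli-like cells alone, Defb19 also reaches 2459 and 2262 CPM in Leydig-like cells, and the other 4 genes are highest in spermatids.

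To compare single cells at 1 depth, each was thinned to 1000 UMIs, which left 609 knockout and 542 heterozygous Sertoli-like cells and left out 235 and 682 shallower ones. At least 1 Defb19 UMI was then found in 81.6% of knockout and 88.6% of heterozygous Sertoli-like cells (88.2% and 84.9% unthinned), and at least 1 Cst12 UMI in 58.0% and 61.8% (67.9% and 56.4% unthinned). For Cst9 the shares were 71.4% in knockout and 50.6% in heterozygous cells (81.8% and 48.1% unthinned), and for Defb36 29.1% and 45.6% (40.3% and 42.3% unthinned). Wfdc10 was found in 35.3% of knockout and 33.0% of heterozygous cells (47.3% and 30.6% unthinned). In late-spermatocyte-like cells at the same depth, a class taken as the background, the Defb19 share was 9.75% in the knockout and 3.48% in the heterozygous library, and the Cst9 share 6.06% and 0.889% (26.6% and 14.9% for Defb19, and 15.1% and 2.47% for Cst9, unthinned). Median depths before thinning were 2051 UMIs in knockout and 1357.5 in heterozygous Sertoli-like cells, and 4337 and 8563 UMIs in late-spermatocyte-like cells. Exactly 3 of the 5 Sertoli genes were detected in 29.4% of knockout and 28.8% of heterozygous Sertoli-like cells, and all 5 in 7.06% and 9.96%. Whether the genes occurred together more often than their single shares imply was not tested.

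**Figure D2:**
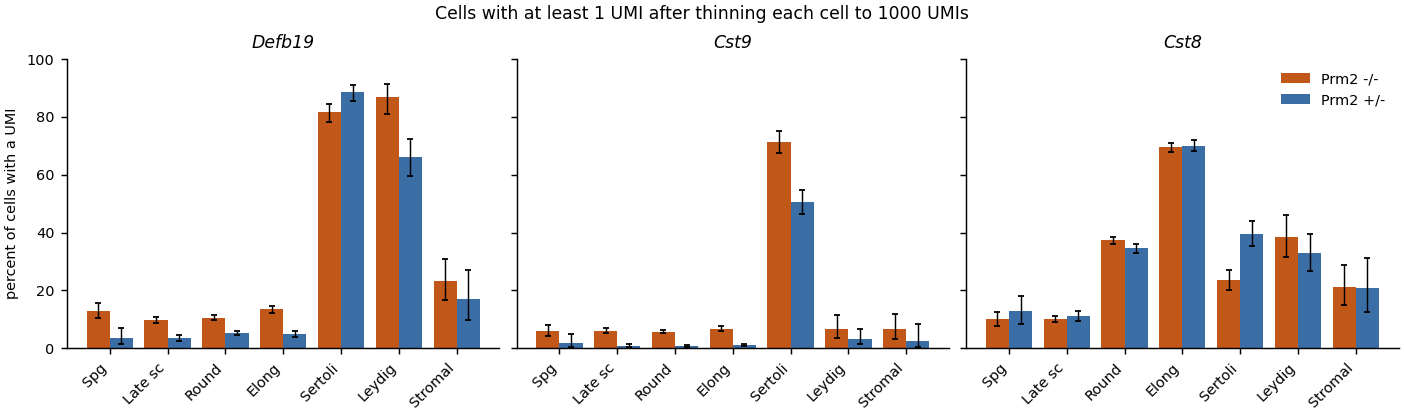
Percent of cells with at least 1 UMI of Defb19, Cst9 or Cst8 (y axis) in the 7 classes after thinning each cell to 1000 UMIs, knockout left of heterozygous, with exact Clopper-Pearson 95% intervals. Defb19 is found in over 60% of both Sertoli-like and Leydig-like cells, Cst9 in Sertoli-like cells above all, and Cst8 in about 70% of elongating-spermatid-like cells.

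Between the genotypes, Cst9 was the Sertoli gene with the highest ratio and Defb36 the one with the lowest. In Sertoli-like cells the log2 ratio of knockout over heterozygous CPM was 1.10 for Cst9 (interval 1.01 to 1.19) and -1.03 for Defb36 (-1.17 to -0.90). Those of Defb19 (-0.35, from -0.41 to -0.30), Cst12 (-0.17, from -0.26 to -0.08) and Wfdc10 (-0.07, from -0.21 to 0.07) stayed within 2-fold. A gene was counted as different at 2-fold or more if it reached 50 CPM in at least 1 library and 100 UMIs over both, a rule of size and not a test. In Sertoli-like cells all 9 genes met that minimum: 1 (Cst9) was at least 2-fold higher in the knockout library, against 20.1% of all 4676 genes, and 4 (Defb36, Cst8, Cstl1 and Defb33) were lower by 2-fold or more, against 4.15%. Of these 4 only Defb36 is a Sertoli gene. Cst8, Cstl1 and Defb33 are spermatid genes, and Defb33 reached 50 CPM in the heterozygous library alone. The spermatid genes Prm1 (log2 ratio -1.61), Tnp1 (-1.65) and Tnp2 (-1.46) were lower in the same cells, while Cst13 (-0.24) stayed within 2-fold. The median log2 ratio was -0.35 over the 9 genes of both kinds and 0.17 over all 4676. Of the genes past 2-fold, 82.9% were higher in the knockout library, and 61.4% with TMM scaling, which lowers every log2 ratio in Sertoli-like cells by 0.24.

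The Cst9 difference depended on the scaling and the cells summed. In cluster 6 (662 knockout and 1204 heterozygous cells) its log2 ratio was 1.27, and in cluster 22 (183 and 20 cells) it was 0.32. Counted per UMI of the 13 Sertoli markers, Cst9 had 354 UMIs per 1000 marker UMIs in the knockout and 237 in the heterozygous library, a log2 ratio of 0.58. With TMM scaling it was 0.87, and over the 9 alternatives tried, TMM included, the ratio was positive in all and past 2-fold in 4. Defb36 remained lower in the knockout library in each of these: its log2 ratio was -0.90 in cluster 6, -1.54 in cluster 22 and -1.56 per marker UMI. Cst12 was at -0.10 in cluster 6 and -1.06 in cluster 22, Defb19 at -0.14 and -1.30, and Wfdc10 at 0.26 and -1.39, so all 3 were past 2-fold and lower in the knockout library in cluster 22. Per marker UMI Cst12 was at -0.69, Defb19 at -0.88 and Wfdc10 at -0.59. The Sertoli markers themselves differed: of the 11 that met the minimum, 4 (Wt1, Gata4, Sox9 and Fshr) were at least 2-fold higher in the knockout library and 0 were lower by as much, with a median log2 ratio of 0.64. In the same Sertoli-like cells, the summed level of 10 elongating spermatid markers was 20612 CPM in the knockout and 54052 CPM in the heterozygous library. Its part in these differences was not tested.

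The ratio of 2 genes within a library does not depend on the scaling. Cst9 and Defb36 are the pair furthest apart in their log2 ratios and are given for that reason. Sertoli-like cells held 5.18 Cst9 UMIs per Defb36 UMI in the knockout library (interval 4.77 to 5.63) and 1.18 in the heterozygous library (1.09 to 1.27), a 4.40-fold difference. It was 5.13 in knockout and 1.14 in heterozygous cells of cluster 6, and 5.26 and 1.44 in those of cluster 22. In germ cell classes the ratio was also higher in the knockout library. Late-spermatocyte-like cells held 3.55 Cst9 UMIs per Defb36 UMI in the knockout and 0.80 in the heterozygous library, and round-spermatid-like cells 3.74 and 0.725. In elongating-spermatid-like cells the ratio was 2.86 in the knockout and 0.925 in the heterozygous library. The ratio of Wfdc10 to Cst12 UMIs was close in the libraries, at 0.407 in knockout and 0.380 in heterozygous Sertoli-like cells.

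**Figure D3:**
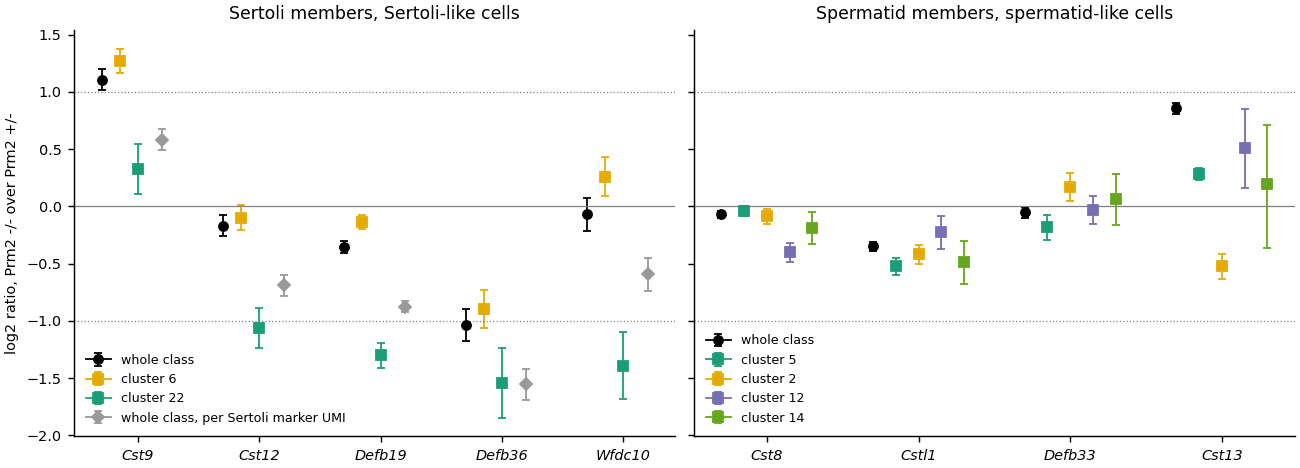
Log2 ratio of knockout over heterozygous level (y axis) of the Sertoli genes in Sertoli-like cells (left) and of the spermatid genes in spermatid-like cells (right), for the whole class of highest level, for single clusters and, on the left, per UMI of the Sertoli markers. Bars are 95% counting intervals and dotted lines mark 2-fold: Defb36 lies below 0 in every series, Cst9 above 0, and Cst13 changes side between clusters.

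The Sertoli genes were also counted in barcodes of germ cells. In late-spermatocyte-like cells the 5 Sertoli genes stood at 1.57% to 2.62% of their Sertoli-like CPM in the knockout library (median 1.79%) and at 0.381% to 0.646% in the heterozygous library (median 0.517%). The 13 Sertoli markers, of which 12 had a value in each library, had medians of 2.01% in the knockout and 0.608% in the heterozygous library there. Elongating-spermatid-like cells held 3.07% to 6.54% of the Sertoli level in the knockout and 0.802% to 1.22% in the heterozygous library, against marker medians of 2.24% and 0.906%. These medians cover 12 markers in the knockout and 10 in the heterozygous library. Markers without a UMI in the class or in Sertoli-like cells were left out of all these medians, which can raise them. In round-spermatid-like cells the genes stood at 2.13% to 3.22% in the knockout and 0.596% to 0.968% in the heterozygous library, against marker medians of 1.66% and 0.919% (13 and 12 markers). In the knockout library all 5 genes were thus above the marker median in both spermatid classes, but within the range of the single markers. That range was 0.818% to 13.0% in elongating-spermatid-like and 0.734% to 13.0% in round-spermatid-like cells. In the heterozygous library the ranges of the 5 genes spanned the marker medians of both classes. For spermatogonia-like cells the range was 2.87% to 5.18% in the knockout and 0.613% to 1.60% in the heterozygous library, and for interstitial-stromal-like cells 4.19% to 6.69% and 1.61% to 6.30%. Summed over all kept cells, the Sertoli markers made up 248 CPM in the knockout and 148 CPM in the heterozygous library. Defb19 was at least 2-fold higher in knockout late-spermatocyte-like cells (62.2 CPM in knockout, 25.2 CPM in heterozygous), 1 of 2 genes meeting the minimum there, against 1.25% of 4008 genes, and none was 2-fold lower, against 0.549%. It was at least 2-fold higher in knockout round-spermatid-like cells too (80.0 and 36.3 CPM), 1 of 5 genes meeting the minimum, against 1.08% of 3895 genes, and none was 2-fold lower, against 0.847%. In both classes Defb19 reached the minimum of 50 CPM in the knockout library alone, which favours a higher call, so nothing is read from these counts. Whether the UMIs of Sertoli genes in germ cell barcodes come from expression in germ cells was not tested.

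The shares of the 5 genes in their summed UMIs were compared between classes. Of all UMIs of the 5 Sertoli genes, Cst9 made up 26.8% in knockout and 11.8% in heterozygous Sertoli-like cells. In late-spermatocyte-like cells it made up 24.9% in the knockout and 8.25% in the heterozygous library, and in round-spermatid-like cells 25.2% and 8.20%. The heterozygous round-spermatid-like interval (6.78% to 9.82%) lay below that of Sertoli-like cells (11.2% to 12.4%). Defb36 made up 5.17% of the UMIs in knockout and 9.99% in heterozygous Sertoli-like cells, against 7.03% and 10.3% in late-spermatocyte-like cells and 8.05% and 11.8% in elongating-spermatid-like cells. In the knockout library the elongating-spermatid-like interval (7.24% to 8.91%) lay above the Sertoli-like one (4.80% to 5.57%). The origin of these UMIs was not tested.

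**Figure D4:**
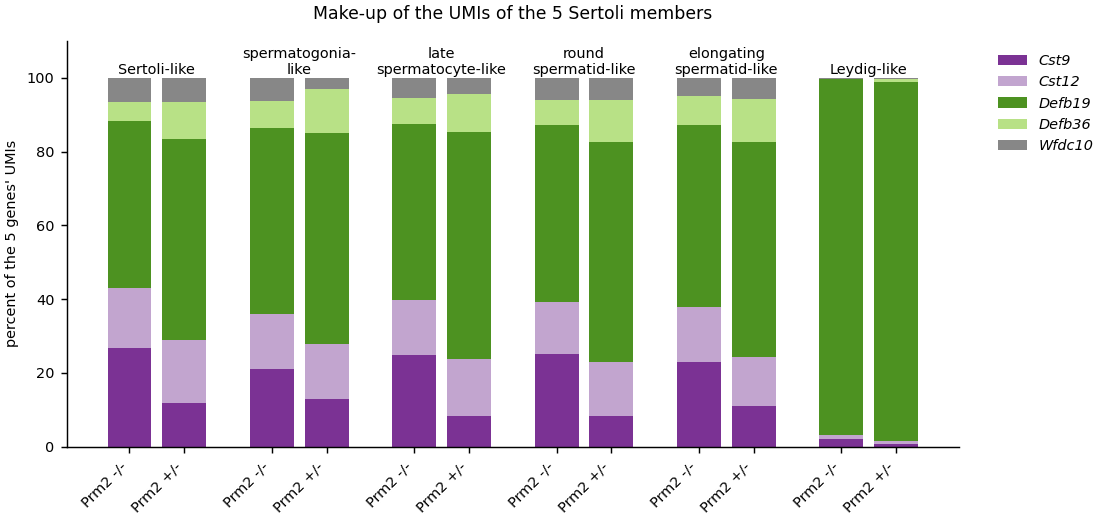
Share of each Sertoli gene in the UMIs of all 5 (y axis, percent) by cell class, knockout left of heterozygous. The Cst9 share is larger in the knockout bar of every class, from 26.8% against 11.8% in Sertoli-like cells to 2.10% against 0.704% in Leydig-like cells, where Defb19 takes over 96%.

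Defb19 differed from the other Sertoli genes in Leydig-like cells, the androgen-producing cells between the tubules. There it had 2459 CPM in the knockout (177 cells) and 2262 CPM in the heterozygous library (293 cells), 80.6% and 58.0% of its Sertoli-like level. Cst9, Cst12, Defb36 and Wfdc10 had between 1.24 and 53.4 CPM there in the knockout and between 9.21 and 20.5 CPM in the heterozygous library. Among Leydig-like cells without a single UMI of these 4 genes, Defb19 stood at 2529 CPM in the knockout (127 cells) and 2477 CPM in the heterozygous library (263 cells). At a depth of 1000 UMIs a Defb19 UMI was found in 86.9% of knockout and 66.2% of heterozygous Leydig-like cells (96.0% and 64.8% unthinned), with median depths of 4143.5 and 2655 UMIs before thinning. Of the 13 Sertoli markers, 5 were above 10 CPM in Leydig-like cells of each library, with a summed level of 1500 CPM in the knockout and 1403 CPM in the heterozygous library. Clu (927 and 1003 CPM), Aard (236 and 142 CPM) and Amhr2 (138 and 125 CPM) were the highest of them. Fshr was at 0 in Leydig-like cells of both libraries, against 66.4 CPM in knockout and 8.69 CPM in heterozygous Sertoli-like cells, and Amh, also at 0, had 7 UMIs in knockout and 0 in heterozygous Sertoli-like cells. The part of Sertoli RNA in the Defb19 level of these cells was not tested. The 9 Leydig markers summed to 28940 CPM in the knockout and 29779 CPM in the heterozygous library. In 2 of the other settings (cells of at least 1000 UMIs, and a coarser clustering) Defb19 was higher in Leydig-like than in Sertoli-like cells of the knockout library, by 2461 to 2372 CPM in the first. The gene whose profile over the 14 class and library sums was most like that of Defb19 was Gstm7 (Pearson r = 0.993), followed by the Sertoli marker Clu (r = 0.990).

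Cst8 was also high in Leydig-like cells, at 490 CPM in the knockout and 508 CPM in the heterozygous library, or 35.6% and 35.2% of its elongating-spermatid-like level. Prm1, a spermatid gene, was at 5.03% and 18.4% of its own there. Knockout Leydig-like cells held 18.8 Cst8 UMIs per Cstl1 UMI (interval 12.1 to 30.7), while knockout elongating-spermatid-like cells held 2.15 and knockout Sertoli-like cells 3.03. In the heterozygous library the ratio was 2.79 in Leydig-like, 1.77 in elongating-spermatid-like and 2.13 in Sertoli-like cells. Of the 5 genes that met the minimum in Leydig-like cells, Cstl1 (26.1 CPM in knockout, 182 CPM in heterozygous) and Defb33 (23.6 and 83.9 CPM) were past 2-fold and lower in the knockout library, against 9.94% of 3140 genes. None of the 5 was at least 2-fold higher, against 4.84%. Cstl1 and Defb33 reached the minimum of 50 CPM in heterozygous Leydig-like cells alone, which favours a lower call, so nothing is read from this count. In these cells the elongating spermatid markers summed to 8621 CPM in the knockout and 38263 CPM in the heterozygous library, and their part in the 2 differences was not tested.

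Cst8, Cstl1, Defb33 and Cst13 were highest in spermatids. In elongating-spermatid-like cells Cst8 had 1373 CPM in the knockout (20231 UMIs) and 1442 CPM in the heterozygous library (19830 UMIs). Cstl1 had 640 CPM in knockout and 814 CPM in heterozygous cells, and Defb33 had 462 and 479 CPM. Cst13 had 434 CPM in knockout and 240 CPM in heterozygous round-spermatid-like cells, against 338 and 124 CPM in elongating-spermatid-like cells. Which of these classes held more Cst13 depended on the setting: of 8 other ways of filtering, clustering, classing or weighting the cells, 5 put it highest in elongating-spermatid-like cells of both libraries, 2 in round-spermatid-like cells, and 1 in different classes of the libraries. With doublets kept, elongating-spermatid-like cells held 656 CPM in the knockout and 267 CPM in the heterozygous library. Over Sertoli-like cells, the elongating-spermatid-like level was higher by 5.79-fold in the knockout and 2.74-fold in the heterozygous library for Cst8, by 8.17- and 3.30-fold for Cstl1, and by 9.75- and 4.56-fold for Defb33. For Cst13 that fold was 2.64 in the knockout but 0.818 in the heterozygous library, where its level was higher in Sertoli-like cells (151 CPM). A difference of 2-fold or more in that direction was found for 18.3% of genes in the knockout and 15.1% in the heterozygous library. At a depth of 1000 UMIs, Cst8 was found in 69.5% of knockout and 70.1% of heterozygous elongating-spermatid-like cells (95.7% and 96.2% unthinned), against 10.1% and 11.0% of late-spermatocyte-like cells (26.5% and 44.2% unthinned).

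Along the round-to-elongating sequence Cst13 peaked before Cst8 and Cstl1, and Defb33 was highest at the end, in both libraries. Within each library, round- and elongating-spermatid-like cells of at least 2000 UMIs were ranked by the log2 ratio of elongating to round marker UMIs and cut into 10 bins of 713 knockout or 395 to 396 heterozygous cells. Cst13 had 31.8 CPM in the first knockout bin and 16.7 CPM in the first heterozygous bin, peaked at 1148 CPM in bin 6 of the knockout and 785 CPM in bin 5 of the heterozygous library, and was at 78.6 and 38.7 CPM in the last bin. Cst13 was thus the transient gene of the 4. Cst8 began at 217 CPM in knockout and 147 CPM in heterozygous cells, peaked at 1509 CPM (bin 8) and 1618 CPM (bin 7), and stood at 1203 and 1298 CPM in the last bin. Cstl1 began at 9.60 and 26.8 CPM, peaked at 708 CPM in bin 8 of the knockout and 951 CPM in bin 7 of the heterozygous library, and ended at 579 and 757 CPM. Defb33 was highest in the last bin, with 557 CPM in both libraries. Bins of the same number do not hold cells of the same stage in both libraries: in bin 6, 54.0% of the knockout but 10.1% of the heterozygous cells were round-spermatid-like.

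**Figure D5:**
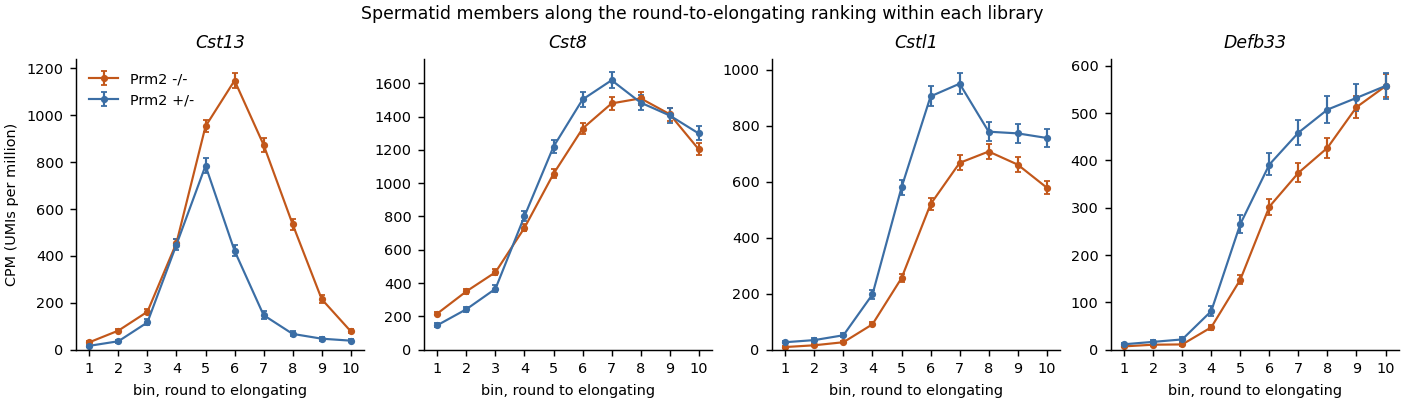
Level in CPM (y axis) of Cst13, Cst8, Cstl1 and Defb33 in 10 bins of spermatid-like cells ranked from round to elongating within each library (x axis), with exact Poisson 95% intervals. Cst13 peaks in bin 6 of the knockout and bin 5 of the heterozygous library and then declines, Cst8 and Cstl1 peak in bins 7 and 8, and Defb33 climbs to the last bin.

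Between genotypes, Cst8 (log2 ratio -0.07), Defb33 (-0.05) and Cstl1 (-0.35) stayed within 2-fold in elongating-spermatid-like cells. Cst13 was at 1.45 there and at 0.86 in round-spermatid-like cells. Of the 6 genes that met the minimum in elongating-spermatid-like cells, 3 (Cst13, Defb19 and Cst9) were at least 2-fold higher in the knockout library, against 7.02% of 2349 genes, and none was 2-fold lower, against 1.02%. Defb19 (140 CPM in knockout, 43.0 CPM in heterozygous) and Cst9 (65.2 and 8.07 CPM) were there at the low levels given above for Sertoli genes in germ cells. Both reached the minimum of 50 CPM in the knockout library alone, which favours a higher call, so nothing is read from their part of the count. Of the genes past 2-fold in this class, 87.3% were higher in the knockout library, but 33.7% with TMM scaling, which lowers every log2 ratio here by 0.48. The libraries also differed in the clusters that make up the class: cluster 2 held 2259 knockout and 163 heterozygous cells, and cluster 14 held 65 and 1180. Within cluster 2 the log2 ratio of Cst13 was -0.53 (403 CPM in knockout, 580 CPM in heterozygous cells), within cluster 12 0.50, and within cluster 14 0.20 with an interval from -0.36 to 0.71. In the round-spermatid-like cluster 5, where Cst13 was highest, it had 998 CPM in knockout and 821 CPM in heterozygous cells, a log2 ratio of 0.28. The part of the cluster make-up in the Cst13 difference was not tested. Cstl1 was lower in the knockout library in all 4 of these clusters, with log2 ratios from -0.53 to -0.23.

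The spermatid genes were counted in Sertoli-like cells as well, at 237 CPM in the knockout and 526 CPM in the heterozygous library for Cst8, 78.3 and 247 CPM for Cstl1, 47.4 and 105 CPM for Defb33, and 128 and 151 CPM for Cst13. As a share of the elongating-spermatid-like level this was 17.3% in the knockout and 36.5% in the heterozygous library for Cst8, 12.2% and 30.3% for Cstl1, and 10.3% and 21.9% for Defb33. Prm1, which is made in spermatids, stood at 10.5% in the knockout and 24.8% in the heterozygous library. In late-spermatocyte-like cells the shares were lower, 4.36% in the knockout and 4.86% in the heterozygous library for Cst8, and 2.80% and 4.00% for Prm1. Cst13 also had 199 CPM in knockout and 103 CPM in heterozygous interstitial-stromal-like cells, from 79 and 23 UMIs. Cluster 20, left unnamed (265 knockout and 55 heterozygous cells), held genes of both kinds. In it Cst8 had 1163 CPM in knockout and 1419 CPM in heterozygous cells, and Defb19 had 1045 and 2082 CPM.

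The genes with profiles most like those of the 9 genes were found by Pearson r of log2(CPM + 1). It was taken over 14 points (7 classes in 2 libraries, where the classes of a library share its preparation and depth). A high r requires high levels in the same classes, so the shared class is no result. Tnp1, Tnp2, Tsx and Rhox8 were also among the markers that named the classes. For Cstl1 the closest genes were Tnp1 (r = 0.997) and Tnp2 (r = 0.996), which encode the transition proteins of elongating spermatids. For Cst13 the closest was Tuba8 (r = 0.982), an alpha-tubulin gene, and for Cst8 Srxn1 (r = 0.976). Cst12 was closest to 1700018G05Rik (r = 0.986) and to the Sertoli markers Tsx (r = 0.985) and Rhox8 (r = 0.984), and Wfdc10 to Etd (r = 0.992). Cst9 was closest to Gatm (r = 0.973), which encodes an enzyme of creatine synthesis, and Defb36 to 1700011M02Rik (r = 0.986) and its neighbour Defb45 (r = 0.949). For Defb33 the closest was Gm4665 (r = 0.988).

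Few relatives of the 9 genes were as abundant. Of 39 other beta-defensins, 7 had 100 or more UMIs and 10 had none. Defb45 was highest in Sertoli-like cells (279 CPM in knockout, 233 CPM in heterozygous), and Defb30 in round-spermatid-like cells (51.5 and 49.4 CPM). Of 19 other cystatins, 6 had 100 or more UMIs. Cst3, which encodes the widely made cystatin C, had 3865 CPM in knockout and 2196 CPM in heterozygous Leydig-like cells, and Cstdc1 had 149 and 138 CPM in Sertoli-like cells. Of the 2 other cystatins that met the minimum in Sertoli-like cells, 0 were past 2-fold between the genotypes, against 20.1% of all genes higher and 4.15% lower (2 genes are too few to set against these shares).

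Among the proteases that classical cystatins act on, the cysteine cathepsins and legumain, those that met the minimum in Sertoli-like cells were higher in the knockout library. Of 11 in the tables, 3 met the minimum and all 3 were past 2-fold, against 20.1% of all genes. Ctsl, a lysosomal protease abundant in Sertoli cells, had 2249 CPM in the knockout and 819 CPM in the heterozygous library (log2 ratio 1.46). Lgmn, which encodes legumain, had 133 and 36.0 CPM (1.89), and Ctsb 53.0 and 19.9 CPM (1.42). Lgmn and Ctsb reached the minimum of 50 CPM in the knockout library alone, which favours a higher call, so nothing is read from the count of 3. The TMM shift leaves these ratios positive. Most of the 11 Sertoli markers that met the minimum moved the same way in these cells, with a median log2 ratio of 0.64. Wt1 (1.94) and Gata4 (2.03) were among the highest, while Tsx (-0.26) and Rhox8 (-0.02) were not higher in the knockout library. The summed elongating spermatid markers moved the other way. Per UMI of the Sertoli markers the log2 ratio was 0.94 for Ctsl, 1.37 for Lgmn and 0.89 for Ctsb, so that Lgmn alone of the 3 stayed past 2-fold. Ctsl had 1882 CPM in knockout and 531 CPM in heterozygous cells of cluster 6, but 2789 and 3529 CPM in those of cluster 22. The difference was not confined to Sertoli-like cells. In Leydig-like cells the log2 ratio was 0.84 for Ctsl, 1.07 for Ctsb, which was highest there, and 1.68 for Lgmn, which missed the minimum. The part of the marker shifts and of the cluster make-up in the protease differences was not tested. Of 4 other WAP and Kunitz type inhibitors that met the minimum, 1 (Spint2) was past 2-fold, with 202 CPM in the knockout and 77.0 CPM in the heterozygous library. Of all genes 20.1% were higher and 4.15% lower, and 4 genes are too few to set against these shares. Per UMI of the Sertoli markers the log2 ratio of Spint2 was 0.87. Spint2 was also higher in knockout Leydig-like (277 and 75.7 CPM) and late-spermatocyte-like cells (174 and 84.7 CPM). Eppin, which encodes a sperm surface inhibitor, had 162 CPM in knockout and 120 CPM in heterozygous Sertoli-like cells.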

How the data were processed

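RNA of dissociated whole testis was counted per cell with 10x Genomics Chromium chemistry (3' v3.1), per the labels' protocols. The deposited values are raw UMI counts for each gene in each cell barcode. Per the file headers they come from Cell Ranger 7.1.0, and Seurat 4.1.0 and the mm10 build are named in the submitters' processing notes. No barcode held under 500 UMIs, so cells had been called before deposit. Columns of other samples numbered 0. Of the gene IDs, 32158 were found in GENCODE M21.

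Cells needed at least 500 UMIs, 250 genes and no more than 20% of UMIs from mitochondrial genes. Doublets were called per library with Scrublet (scanpy 1.11.5, 0.8% expected per 1000 cells) and removed. Both libraries were clustered together without integration, with 2000 variable genes, 30 principal components, 20 neighbours and Leiden resolution 1 (leidenalg 0.10.2). The best of 5 seeds was used, since single cells more or less had changed the clusters. The variable genes excluded the 9 genes, their relatives, protamines, transition proteins, Xist and mitochondrial and Y genes. Clusters were named from 14 marker sets by a score set after seeing the data (mean standardized level of at least 0.5 and 0.25 ahead of the next, at least 3 markers above 10 CPM). Cells with over 1% hemoglobin UMIs were counted as red blood cells.

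UMIs of a class were summed per library and scaled to CPM, with no division by gene length. Intervals are exact (Poisson, conditional binomial, Clopper-Pearson) at 95% and cover counting error only, with a floor of 3 counts for a library at 0. With 1 library per genotype no test or p-value was computed. The calculations were tested on simulated data.

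The 9 genes and the lists were chosen with earlier results of these data known. Named besides are the 3 genes most like each in profile, up to 3 of each list per cell type, markers and map neighbours. Alternatives were other cell filters, doublets kept, Leiden 0.5 and 2, separate clustering, classes by marker share, equal weight per cell, TMM factors (edgeR 4.0.16), other CPM minimums and other thinning. Single clusters, scaling per Sertoli marker UMI and finding the class of highest level anew under each setting were chosen after seeing the data.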

Additional observations from a re-analysis of the deposited data

Results flagged for a closer look

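The log2 ratio of Defb36 was past 2-fold in opposite directions in different cell classes. Its log2 ratio of knockout over heterozygous level was -1.03 in Sertoli-like cells, where it is highest (349 CPM in the knockout and 714 CPM in the heterozygous library). It was 1.12 in late-spermatocyte-like cells (9.13 CPM in the knockout and 4.21 CPM in the heterozygous library) and 1.39 in elongating-spermatid-like cells (22.8 and 8.72 CPM), in both of which it missed the minimum of 50 CPM. The sign of the ratio differed between Sertoli-like and germ cells for 3 other Sertoli genes as well. Cst12 was at -0.17 in Sertoli-like, 1.60 in late-spermatocyte-like and 2.11 in elongating-spermatid-like cells, Defb19 at -0.35, 1.30 and 1.70, and Wfdc10 at -0.07, 1.97 and 1.71, while Cst9 was positive in all 3. The Sertoli markers Tsx (-0.26, 2.71 and 2.09) and Rhox8 (-0.02, 2.95 and 2.22) changed sign in the same way, also below 50 CPM in the germ cells. The other Sertoli markers that met the minimum in Sertoli-like cells were positive there. In Sertoli-like cells the intervals of Wfdc10 (-0.21 to 0.07) and Rhox8 (-0.18 to 0.15) span both signs. The difference between classes was not tested, since each genotype is 1 library. The germ cell levels of Defb36 are 2.62% and 6.54% of the Sertoli-like level in the knockout library, and 0.590% and 1.22% in the heterozygous library.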

How the results depend on the processing

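In each of the 8 other ways of filtering, clustering, classing or weighting the cells, 4 genes were highest in a spermatid-like class in both libraries. For Cst13 that class was elongating-spermatid-like in 5, round-spermatid-like in 2 and different between the libraries in 1. The count highest in Sertoli-like cells was 5, or 4 with cells of at least 1000 UMIs and with Leiden resolution 0.5, where Defb19 was highest in Leydig-like cells of the knockout library. With each gene's class kept as in the report, the 2 genes past 2-fold in their class of highest level became 1 with doublets kept, cells of at least 1000 UMIs, Leiden 0.5, classes by marker share, equal weight per cell, TMM factors, and cluster 6 alone. With the class of highest knockout level found anew under each of the 8 settings, the count was 1 to 3, since Cst13 was then past 2-fold in 6 (log2 ratio 1.30 with doublets kept and 1.24 with at least 1000 UMIs).

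Over 9 such settings, TMM included, the log2 ratio of Cst9 in Sertoli-like cells ran from 0.51 to 1.33 and was past 2-fold in 4; that of Defb36 ran from -1.48 to -0.73 and was past 2-fold in 8. Cst13 in round-spermatid-like cells ran from -0.06 (each library clustered on its own) to 0.98. The signs of Cst12 (-0.80 to 0.04) and Wfdc10 (-0.69 to 0.37) also depended on the setting, while Defb19 (-0.96 to -0.05), Cst8 (-0.55 to -0.03) and Cstl1 (-0.83 to -0.29) stayed below 0 and Defb33 ran from -0.53 to 0.00.

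The 1132 genes past 2-fold in Sertoli-like cells became 398 with cells of at least 1000 UMIs, 708 with at most 10% mitochondrial UMIs, 335 with Leiden 0.5, 444 by marker share, 176 at a minimum of 200 CPM and 5973 with no minimum. In round-spermatid-like cells the 75 became 302 at a minimum of 10 CPM, 11 at 200 CPM and 3641 with none. In elongating-spermatid-like cells the 189 became 285 with doublets kept, 633 with separate clustering, 102 by marker share, 98 with TMM factors, 1102 at 10 CPM, 43 at 200 CPM and 6238 with none. At 200 CPM, 55.7% of the genes past 2-fold in Sertoli-like cells and 27.3% in round-spermatid-like cells were higher in the knockout library. The causes of these changes were not tested, except that a higher minimum counts fewer genes. No paired analysis was possible because each genotype is 1 library and no test was made. Leaving out a library leaves no comparison.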
